A study of Mus musculus with 6 samples.

Results

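The 10 genes described here encode proteins that end or limit the response of macrophages to lipopolysaccharide (LPS), and were taken by name as the rows *Tnfaip3*, *Tnip1*, *Socs1*, *Socs3*, *Cish*, *Dusp1*, *Dusp2*, *Zfp36*, *Irak3* and *Il10* of a table of 15415 genes. All 10 were listed, and all 10 were among the 9030 genes with a mean of at least 1 FPKM in one group, the genes that were tested. FPKM are reads per gene scaled by gene length and by the reads of the library, so levels can be compared between genes as well as between libraries. RNA was sequenced from peritoneal macrophages (PEMs) in 6 libraries. The genotype LysM-Cre; Tim-4 fl/fl gave 3 of them (knockout libraries 1 to 3). In these mice Cre is made from the *Lyz2* locus of myeloid cells and deletes the floxed *Tim-4* alleles. The genotype Tim-4 fl/fl, with the same floxed alleles and no Cre, gave the other 3 (control libraries 1 to 3). The Cre allele and the loss of Tim-4 therefore cannot be told apart in this comparison. By the methods of the study the mice were males of 6 to 8 weeks, and PEMs were collected 3 days after an intraperitoneal injection of 6% starch. LPS is the treatment entered in the labels for each of the 6 libraries. The methods describe activation with 1 μg/ml LPS for 3.5 hours without naming the sequenced cells, and no untreated library was analysed here, so all values are levels and not inductions. The groups follow the sample titles, since the genotype entry of the labels names them the other way round.

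As background, LPS binds Toll-like receptor 4, which drives NF-κB, the MAP kinases and interferon production. The same signals switch on their own brakes. A20 (*Tnfaip3*) and its partner ABIN1 (*Tnip1*) act on ubiquitin chains upstream of NF-κB, IRAK-M (*Irak3*) is an IRAK family member that restrains signalling at the receptor complex, and DUSP1 and DUSP2 remove phosphate from MAP kinases. SOCS1, SOCS3 and CIS (*Cish*) limit cytokine signalling through JAK and STAT proteins, tristetraprolin (*Zfp36*) binds AU-rich mRNAs such as that of *Tnf* and leads to their decay, and IL-10 is a secreted cytokine that dampens macrophage activation through STAT3.

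To show what stands before the start sites of these genes, the 250 bases before each RefSeq start (GRCm38.p6) were searched on both strands for 4 motifs. They were the gamma-activated site TTCNNNGAA bound by STAT dimers, the kappaB decamer of NF-κB, the CArG box of serum response factor, and the cAMP response element TGACGTCA. RefSeq windows were found for 9 of the 10 genes, all but *Il10*, in 11 windows. The first 3 windows printed are those of *Socs3*, *Zfp36* and *Dusp2*, whose values were higher in the knockout libraries. The window of *Dusp5* is the one of a phosphatase that was lower, and that of *Tnfaip3* belongs to the member with the highest level. Capitals mark matches to these motifs, and the sequences run 5′ to 3′ towards the start.
Socs3 (chr11:117969367-117969616, minus strand): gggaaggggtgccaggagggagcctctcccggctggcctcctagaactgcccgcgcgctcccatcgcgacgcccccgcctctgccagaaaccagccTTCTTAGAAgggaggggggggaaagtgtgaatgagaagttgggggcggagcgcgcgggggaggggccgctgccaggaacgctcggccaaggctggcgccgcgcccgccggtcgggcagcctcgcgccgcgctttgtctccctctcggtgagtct
Zfp36 (chr7:28379229-28379478, minus strand): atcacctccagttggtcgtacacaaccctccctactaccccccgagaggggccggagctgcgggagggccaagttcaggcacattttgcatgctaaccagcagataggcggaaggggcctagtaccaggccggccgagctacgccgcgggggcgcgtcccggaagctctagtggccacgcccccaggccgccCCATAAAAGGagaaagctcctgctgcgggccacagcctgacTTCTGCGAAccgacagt
Dusp2 (chr2:127335909-127336158, plus strand): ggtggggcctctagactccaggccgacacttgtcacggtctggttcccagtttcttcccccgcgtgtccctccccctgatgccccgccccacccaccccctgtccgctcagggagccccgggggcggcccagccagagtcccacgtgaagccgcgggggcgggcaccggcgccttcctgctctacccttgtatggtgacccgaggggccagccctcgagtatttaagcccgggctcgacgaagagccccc
Dusp5 (chr19:53528895-53529144, plus strand): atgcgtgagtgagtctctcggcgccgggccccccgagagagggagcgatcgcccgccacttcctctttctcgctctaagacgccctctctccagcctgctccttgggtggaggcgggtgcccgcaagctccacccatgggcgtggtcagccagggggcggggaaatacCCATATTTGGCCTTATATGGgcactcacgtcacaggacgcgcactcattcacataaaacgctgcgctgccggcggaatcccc
Tnfaip3 (chr10:19015411-19015660, minus strand): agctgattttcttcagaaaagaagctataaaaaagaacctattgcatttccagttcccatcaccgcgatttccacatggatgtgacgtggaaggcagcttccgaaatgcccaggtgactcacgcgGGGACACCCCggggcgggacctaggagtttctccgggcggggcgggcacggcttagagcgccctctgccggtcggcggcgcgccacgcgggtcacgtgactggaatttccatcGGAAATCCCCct

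Of the 9 genes, 3 held a gamma-activated site. It lay 154 to 146 bases before the start of *Socs3* (TTCTTAGAA), 17 to 9 bases before that of *Zfp36* (TTCTGCGAA) and 199 to 191 bases before that of *Tnip1* (TTCCTGGAA), and 7.02% of all 32851 RefSeq windows of this length held the motif. The kappaB decamer was matched in *Tnfaip3*, at 125 to 116 and at 12 to 3 bases before the start, and in *Tnip1*, where 3 overlapping matches covered 1 palindromic stretch. It was present in 7.25% of all windows. *Zfp36* held a CArG box 58 to 49 bases before its start (CCATAAAAGG), a motif in 1.47% of windows, and *Dusp5* held a pair of adjacent ones. *Dusp1* held the cAMP response element 143 to 136 bases before its start (1.55% of windows). The windows of *Dusp2*, *Irak3*, *Socs1* and *Cish* had no match, which says only that these letters are not in these bases.

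**Figure D1:**
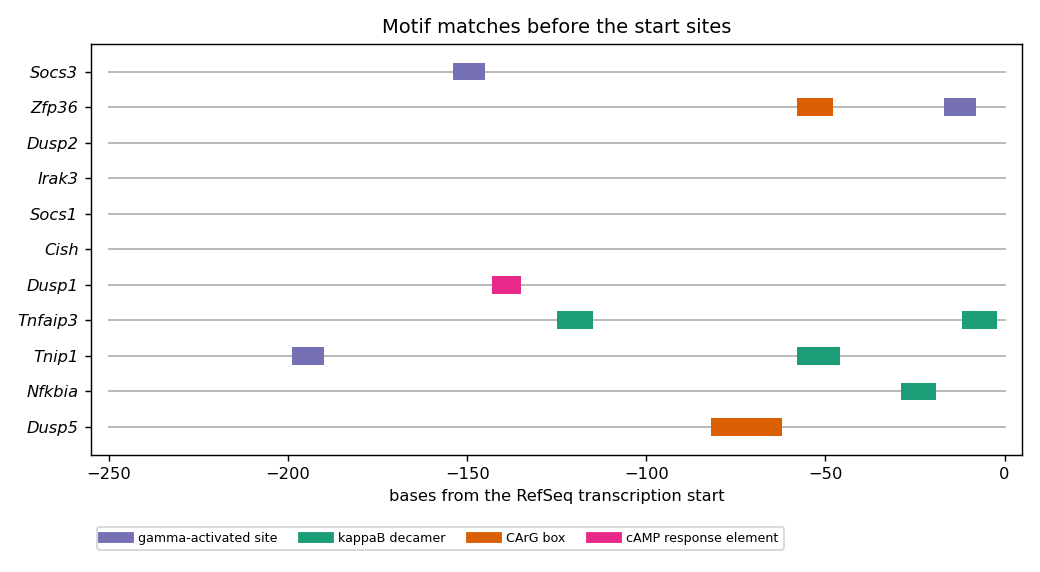
Positions of the 4 motifs in the 250 bases before the RefSeq start (x axis, bases from the start) of 9 regulators and of Nfkbia and Dusp5; bars are matches, coloured by motif, and genes with several windows show the matches of all. Socs3, Zfp36 and Tnip1 carry a gamma-activated site, and Socs1, Cish, Dusp2 and Irak3 carry no match.

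The targeted gene and the driver of Cre were read first. Of *Timd4*, the gene of Tim-4, the knockout libraries held 0.333, 0.394 and 0.246 FPKM, and the controls 19.5, 12.0 and 1.19. Control library 3 was the lowest control. Of *Lyz2*, in which the Cre sequence sits, the knockout libraries held 41.4, 4656 and 106 FPKM, and the controls 7090, 7171 and 8482. Knockout library 2 stood apart from the other knockout libraries here, though not in *Timd4*. Leaving out knockout library 2, limma called 0 of the 10 members, against 0.698% of all genes, and held 3 at an unadjusted p below 0.05, against 16.0%. Leaving out control library 3, it called 0 against 14.2%, and held 4 at an unadjusted p below 0.05, against 31.1%. The log2 fold changes were then 1.20 and 0.80 for *Socs3*, 1.0 and 0.92 for *Zfp36*, 1.19 and 1.17 for *Dusp2*, and -0.51 and -0.63 for *Irak3*.

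For the counts of markers that follow, limma called 7.31% of all tested genes, or 9.47% with the replicate number as a term of the fit (the replicate block), and 27.6% lay at an unadjusted p below 0.05 (6.52% and 26.9% by voom). Macrophage markers were present in every library, with a summed level of 2563 to 2840 FPKM in the knockout libraries against 2188 to 2659 FPKM, and 0 of 6 passed in limma (3 at an unadjusted p below 0.05, and 0 and 3 by voom). In the knockout libraries most of this sum was *Cd68* (1642 ± 61.1 FPKM, against 1091 ± 282 FPKM in the controls, SD, n = 3 each). By contrast, 4 of the 6 had log2 fold changes below 0, among them *Csf1r* (105 ± 33.3 against 168 ± 14.9 FPKM) and *Cd14* (338 ± 72.2 against 556 ± 73.2 FPKM), whose groups did not overlap. Markers of large peritoneal macrophages had a summed level of at most 20.5 FPKM against at least 88.5 FPKM, and 5 were tested. *Prg4*, *Cd5l* and *Icam2* passed, lower in the knockout libraries, while 4 passed with the block and voom called 2. *Timd4*, itself the deleted gene, *Icam2* and *Selp* of this list passed the filter only through the controls. Of the small peritoneal macrophage and monocyte markers (113 to 282 against 215 to 465 FPKM in sum), 3 of 4 tested had log2 fold changes below 0 and 1 passed, with and without the block. Voom called 0 of them. Of the neutrophil markers (70.8 to 200.4 against 193 to 457 FPKM), 4 of 4 were below 0 and 1 passed, or 2 with the block. Mesothelial and fibroblast markers, of which 3 were tested and 0 passed in limma (2 at an unadjusted p below 0.05, and 0 and 2 by voom), summed to 4.35 to 19.2 against 0.154 to 5.93 FPKM. With the replicate block 2 of the 3 were called higher, and these 3 passed the filter only through the knockout libraries. Eosinophil markers summed to 0.135 to 0.577 against 1.17 to 1.56 FPKM and T cell markers to 0.156 to 0.329 against 0.339 to 1.54 FPKM, lower in the knockout libraries without overlap in both, and no gene of either list reached the filter. In bulk RNA fewer cells of a type and less RNA per cell cannot be told apart, and the part of these cells in the values of the 10 regulators was not tested.

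The comparison of the genotypes asked how the brakes on the LPS response stood in macrophages that lack Tim-4. *Zfp36*, *Socs3* and *Dusp2* were 2.25, 2.35 and 3.06 times as high in the knockout libraries as in the control libraries by the group means, and *Irak3* was 1.60 times as high in the controls. None of these differences passed an adjusted p of 0.05 in limma without a term for the replicate number, and all 4 passed with that number as a block. No label pairs the libraries, and the pairing by number rests only on a check of these same data. *Tnfaip3* and *Tnip1*, the most abundant regulators of NF-κB in the list, differed by 1.21 and 1.03 times. *Il10* was 1.73 times as high in the knockout libraries, short of the threshold in both fits.

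Over the 10 members, the limma fit of log2(FPKM + 1) without the block called 0, against 7.31% of all tested genes (2.57% higher and 4.74% lower). At an unadjusted p below 0.05 it held 4 (27.6% of all genes). On the recovered reads voom also called 0, against 6.52%, with 4 at an unadjusted p below 0.05 (26.9%). Without knockout library 3 limma called 3 (*Dusp2*, *Zfp36* and *Irak3*), against 5.83% of all genes, and without control library 1 it called *Zfp36*, against 8.7%. With the block, 4 of 10 were called, 3 higher and 1 lower, against 9.47% of all genes in either direction, 3.9% higher and 5.57% lower. The median log2 fold change of the 10 members was 0.49, beside -0.11 over all tested genes. Leaving out knockout library 1 gave a median of 0.19, knockout library 3 one of 0.86, control library 1 one of 0.78 and control library 3 one of 0.31. When the libraries were rescaled by median-of-ratios factors, the median of all genes moved to 0.012 and that of the members to 0.61, and no member changed sign. The libraries held 36170767 to 42217558 reads on the listed genes, of which 155 to 971 per library lay on *Dusp2*.

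Values were also compared between libraries of equal replicate number. In 7 of the 10 members (*Tnfaip3*, *Socs1*, *Socs3*, *Cish*, *Dusp2*, *Zfp36* and *Il10*) the knockout library was above the control library of the same number in all 3 pairs, which held for 18.0% of all tested genes. In 2 (*Dusp1* and *Irak3*) it was below in all 3, which held for 36.4% of all tested genes. The same 7 genes had the lowest value of both groups in library 3, as did 9.77% of all tested genes, a feature looked for after the values were seen. Every library of one group lay apart from every library of the other in 2 members, *Dusp2* and *Irak3*, against 34.1% of all tested genes. With knockout library 3 left out 7 members lay apart, against 50.2% of all tested genes, and with control library 1 left out 5 did, against 51.9%.

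**Figure D2:**
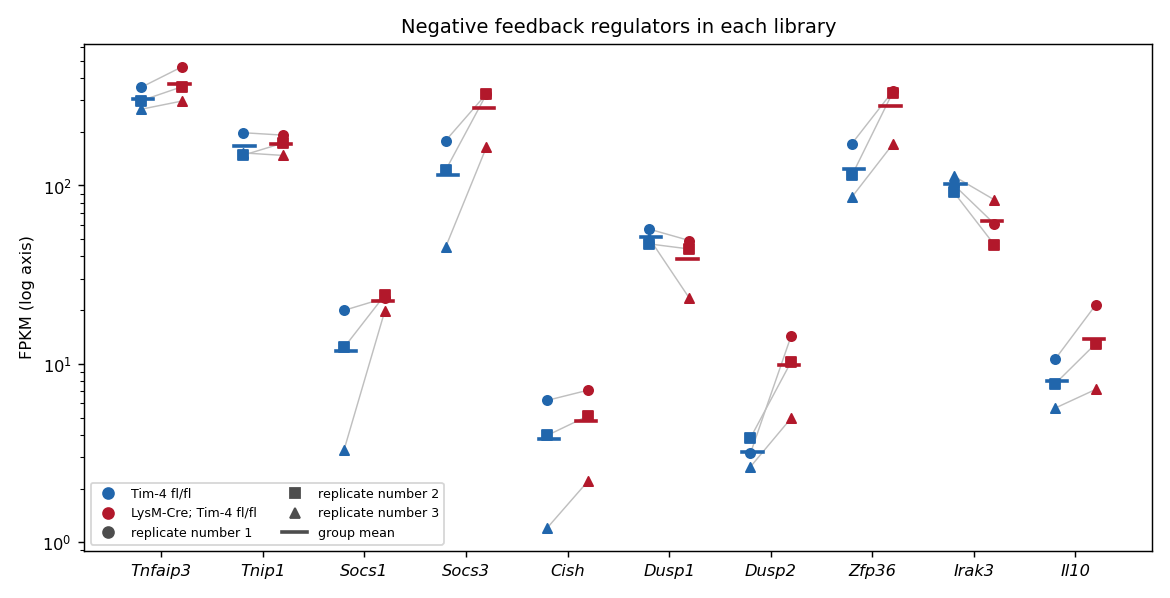
FPKM (y axis, log scale) of the 10 regulators in each library; blue is Tim-4 fl/fl, red is LysM-Cre; Tim-4 fl/fl, the symbol gives the replicate number, grey lines join libraries of equal number and bars are group means (n = 3). In Socs3, Zfp36, Dusp2 and Il10 all 3 lines rise, and in Irak3 and Dusp1 all 3 fall.

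Among the regulators of cytokine signalling, *Socs3* (Entrez 12702) reached 325, 324 and 163 FPKM in the 3 knockout libraries, in the order of their numbers, against 178, 122 and 45.2 in the controls. Knockout library 3 lay below control library 1, so the groups overlapped, but each knockout library was 1.82, 2.66 and 3.62 times its control of the same number. In limma its log2 fold change was 1.37 (SE 0.51, 95% confidence interval 0.17 to 2.56) with an adjusted p of 0.139, or 0.0219 with the replicate block, and became 0.80 when control library 3 was left out. *Socs1* (Entrez 12703), which restrains interferon receptors in particular, reached 23.4, 24.3 and 19.7 FPKM against 19.9, 12.4 and 3.30. The knockout libraries lay close together, with a coefficient of variation of 10.8%, while the controls spread over 70.2%. Its limma log2 fold change was 1.14 (SE 0.52, interval -0.09 to 2.36) with an adjusted p of 0.207, or 0.11 with the block, and fell to 0.48 when control library 3 was left out. *Cish* (Entrez 12700), a STAT5 target that limits STAT5 signalling, was low in all libraries, at 7.12, 5.11 and 2.20 FPKM against 6.24, 3.97 and 1.20 FPKM. Its log2 fold change of 0.33 had an interval of -0.82 to 1.48 (limma adjusted p = 0.689) and became -0.15 when control library 3 was left out.

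Of all tested genes limma called 7.31% and held 27.6% at an unadjusted p below 0.05 (6.52% and 26.9% by voom). The other SOCS and PIAS genes listed, 7 of 8 of which were tested, held 0 called genes in limma (2 at an unadjusted p below 0.05, and 0 and 2 by voom). The largest differences among them were in *Socs5*, with a log2 fold change of -0.39 (limma adjusted p = 0.0886), and *Socs7*, with 0.36 (adjusted p = 0.136). *Socs5* passed the filter only through the control libraries. *Socs2*, the gene below the filter, was at 0.293 FPKM or less in every library.

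*Zfp36* (Entrez 22695) stood at 337, 331 and 170 FPKM in the knockout group, against 172, 114 and 86.3 FPKM in the controls. Knockout library 3 fell just below control library 1, the one overlap between the groups. This gave a log2 fold change of 1.15 (SE 0.34, interval 0.36 to 1.95) and a limma adjusted p of 0.0820. That p was 0.0208 with the replicate block, 0.0411 without knockout library 3 and 0.0472 without control library 1. It was 0.258 and 0.280 when knockout library 1 or 2 was left out, and 0.231 and 0.113 when control library 2 or 3 was.

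Its paralogue *Zfp36l1* (Entrez 12192), another AU-rich element binding protein, was lower in the knockout libraries, at 3.25, 3.46 and 2.20 FPKM against 11.5, 9.82 and 5.73 FPKM. The groups did not overlap, and the log2 fold change of -1.30 (SE 0.25) had a limma adjusted p of 0.0297, or 0.0588 after the rescaling. It stayed below the threshold when control library 1 (0.0455) or 3 (0.00357) was left out, and rose above it when any one of the other libraries was. The ratio of *Zfp36* to *Zfp36l1*, each plus 1 FPKM, was 79.4, 74.4 and 53.3 in the knockout libraries and 13.8, 10.6 and 13.0 in the controls (exact permutation p = 0.1, two-sided, the smallest that 3 against 3 libraries allow). This ratio was chosen after the values were seen. *Zfp36l2* showed no such difference (log2 fold change 0.03, limma adjusted p = 0.959). Further ratios were computed. Those of *Zfp36* to *Tnf* and of *Tnfaip3* to *Tnf* did not separate the groups (exact permutation p = 0.2 and 0.7). Those of *Dusp2* to *Dusp4*, *Irak2* to *Irak3* and *Socs3* to *Stat3* did. The first and second of these had to, as their genes lay apart in opposite directions. Of the 11 genes of mRNA decay and its control that were listed, all were tested and 2 passed, both lower, against 4.74% of all tested genes called lower, while voom called 0 (3 at an unadjusted p below 0.05) and the block 1, also lower. The other was *Mapk14*, the p38α kinase whose target MK2 phosphorylates tristetraprolin, at 21.0 ± 3.15 FPKM against 33.1 ± 1.11 FPKM (SD, n = 3 each). Its log2 fold change was -0.64 (limma adjusted p = 0.0419, 0.053 with the block and 0.0692 after rescaling).

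**Figure D3:**
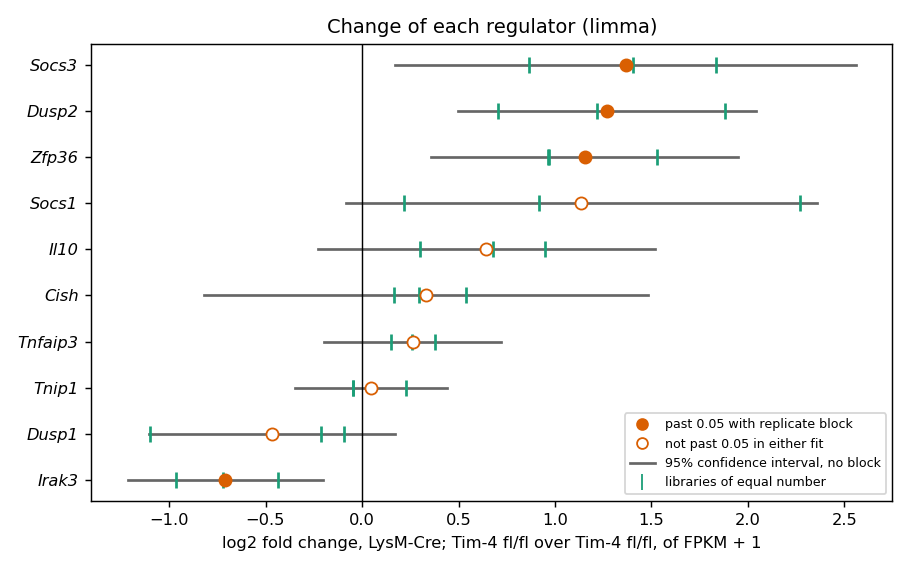
Log2 fold change of FPKM + 1 (x axis, LysM-Cre; Tim-4 fl/fl over Tim-4 fl/fl) of each regulator with its 95% confidence interval from limma without the block; green ticks are the differences between libraries of equal number and filled points passed an adjusted p of 0.05 with the replicate block. Socs3, Dusp2, Zfp36 and Irak3 are filled, and only Tnip1 has ticks on both sides of 0.

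Among the MAP kinase phosphatases, *Dusp2* (Entrez 13537), a nuclear phosphatase of activated leukocytes, reached 14.3, 10.2 and 4.95 FPKM in the knockout libraries against 3.15, 3.84 and 2.65 in the controls. All 3 knockout libraries were above all 3 controls, and knockout library 3 was nearest to them. Its log2 fold change of 1.27 (SE 0.33, interval 0.50 to 2.04) had a limma adjusted p of 0.0606. That p was 0.0313 with the block and 0.0142 without knockout library 3, and lay between 0.079 and 0.220 when any one of the other libraries was left out.

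*Dusp1* (Entrez 19252), the phosphatase of p38 and JNK that is induced early after LPS, was at 49.1, 44.0 and 23.3 FPKM against 57.0, 47.1 and 50.9 FPKM. The controls lay close together and knockout library 3 stood below all other libraries. The log2 fold change of -0.47 (interval -1.10 to 0.17) had a limma adjusted p of 0.302, and was -0.14 without knockout library 3.

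The other phosphatases listed, 11 genes of which 7 were tested, held 1 called gene, *Dusp5*. It was lower, against 4.74% of all tested genes called lower. *Dusp5* (Entrez 240672), a nuclear phosphatase of ERK, fell to 4.19, 3.15 and 2.88 FPKM from 7.55, 6.89 and 8.48 FPKM in the controls. Its log2 fold change of -0.98 (SE 0.16) had a limma adjusted p of 0.0185, which became 0.0569 or 0.1 when knockout library 1 or 2 was left out and 0.0883 when control library 2 was. *Dusp4* was at 18.7 ± 7.11 FPKM against 42.9 ± 11.9 FPKM (SD, n = 3 each) with a log2 fold change of -1.18, an adjusted p of 0.0579 from limma and of 0.0277 with the block. With the block *Dusp2* was thus called higher and *Dusp4* and *Dusp5* lower in the same libraries. The ratio of *Dusp2* to *Dusp5*, each plus 1 FPKM, was 2.94, 2.71 and 1.53 in the knockout libraries against 0.485, 0.614 and 0.385 in the controls. This pair was also chosen after the values were seen. Since the groups of both genes lay apart in opposite directions, the ratio had to separate them and is no test.

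**Figure D4:**
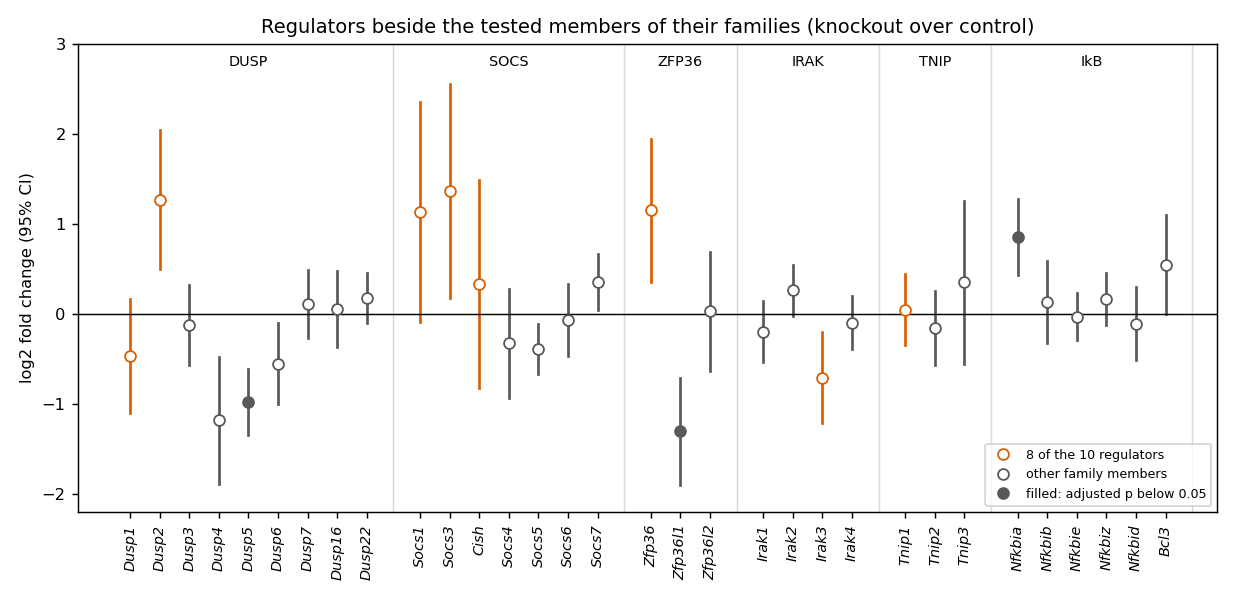
Log2 fold change with its 95% confidence interval (y axis, knockout over control, limma without the block) of 8 of the 10 regulators, without Tnfaip3 and Il10 (orange), and of other tested members of their families (grey); filled points passed an adjusted p of 0.05. Dusp5, Zfp36l1 and Nfkbia are filled, and every plotted family holds members on both sides of 0.

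*Irak3* (Entrez 73914) stood at 61.0, 46.6 and 83.2 FPKM across the knockout group and at 101, 92.0 and 113 FPKM in the controls. The groups did not overlap, with the controls above. Its log2 fold change of -0.71 (SE 0.22, interval -1.21 to -0.20) had a limma adjusted p of 0.0895, or 0.0469 with the block and 0.0424 without knockout library 3. When any one of the other libraries was left out it lay between 0.111 and 0.289. The other IRAK genes were not called. *Irak2*, the kinase that sustains signalling late in the response, differed by 0.26 in log2 (limma adjusted p = 0.207), and *Irak1* and *Irak4* had -0.20 and -0.10.

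Of the 14 genes listed as acting close to Toll-like receptors, 13 were tested and 2 passed, both lower, against 4.74% of all tested genes called lower. With the block 1 was called higher and 2 lower, against 3.9% and 5.57% of all tested genes. *Inpp5d*, the gene of the lipid phosphatase SHIP1, was at 1.64, 1.93 and 3.1 FPKM against 8.77, 6.05 and 5.75 FPKM, or -1.29 as log2 fold change (limma adjusted p = 0.0205). *Il1rl1*, the gene of the IL-33 receptor ST2, was at 0.160 ± 0.0387 FPKM against 1.10 ± 0.449 FPKM (SD, n = 3 each, log2 fold change -0.84, adjusted p = 0.0361). It passed the filter on low values only through the control libraries, so its call is no independent sign of a difference. *Atf3*, a stress-induced repressor of inflammatory genes, had a log2 fold change of 0.79 and an adjusted p of 0.0571 in limma, was called higher by voom (0.0357) and after rescaling (0.0333), and was the one further gene among the 3 that voom called in this list. Mast cells carry ST2 in abundance, and 5 of 5 tested mast cell markers were lower in the knockout libraries, with a summed level of 1.89 to 2.27 FPKM against 38.2 to 49.3 FPKM. All 5 passed the filter only through the controls. Their part in the value of *Il1rl1* was not tested. *Trafd1*, an interferon-induced brake on TRAF6, was higher with the block (log2 fold change 0.68, limma adjusted p = 0.0389, and 0.0806 without it).

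At the level of NF-κB, *Tnfaip3* (Entrez 21929) had the highest level of the 10 members in both groups, with 461, 357 and 297 FPKM against 354, 298 and 267 FPKM in the controls. The groups overlapped, and the pairs of equal number differed by 1.30, 1.20 and 1.11 times. The log2 fold change of 0.26 had an interval of -0.20 to 0.72 (limma adjusted p = 0.413, and 0.246 with the block). The fold change became 0.096 when knockout library 1 was left out, 0.41 when knockout library 3 was and 0.17 when control library 3 was. *Tnip1* (Entrez 57783) was at 191, 173 and 147 FPKM against 198, 147 and 152 FPKM. Its log2 fold change of 0.05 had an interval of -0.35 to 0.44 (limma adjusted p = 0.882) and changed sign when knockout library 1, control library 2 or control library 3 was left out. After rescaling by median-of-ratios factors the log2 fold changes were 0.41 for *Tnfaip3* and 0.19 for *Tnip1* (limma adjusted p = 0.347 and 0.623).

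*Nfkbia*, the gene of IκBα and the best known feedback target of NF-κB, was the one of the 6 IκB genes listed that passed. It was called higher, as were 2.57% of all tested genes. Its 469, 379 and 327 FPKM stood above the 249, 211 and 185 FPKM of the controls without overlap. In log2 terms it rose by 0.86 (SE 0.18), with a limma adjusted p of 0.0355, which was 0.0219 with the block and 0.0528 after rescaling. Of the 10 genes listed with A20 in ubiquitin editing, 10 were tested and 0 passed in limma (4 at an unadjusted p below 0.05), while voom called 0 (5 at an unadjusted p below 0.05). Over all tested genes these shares were 7.31% and 27.6% in limma, and 6.52% and 26.9% by voom. *Usp18*, which removes ISG15 and blocks interferon receptor signalling, passed with the block (log2 fold change 1.21, limma adjusted p = 0.0459, and 0.126 without it). *Itch*, a ubiquitin ligase that works with A20, had a log2 fold change of -0.57 (limma adjusted p = 0.0704).

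*Il10* (Entrez 16153) reached 21.4, 13.0 and 7.20 FPKM in the knockout libraries, and 10.6, 7.73 and 5.65 FPKM in the controls. Knockout library 3 lay within the range of the controls. The pairs of equal number differed by 2.02, 1.68 and 1.27 times. As log2 fold change this was 0.64 (SE 0.37, interval -0.23 to 1.52), with a limma adjusted p of 0.301, or 0.0649 with the block. The fold change became 0.29 when knockout library 1 was left out and 1.01 when knockout library 3 was. Peritoneal B cells are another source of IL-10, and 5 of 5 tested B cell markers were lower in the knockout libraries, with a summed level of 2.78 to 5.52 FPKM against 27.5 to 115 FPKM. Of these 5, 4 passed the filter only through the controls, and voom called 1. Their part in the value of *Il10* was not tested. Of the 11 genes listed for the IL-10 receptor pathway, 11 were tested and 0 passed in limma (2 at an unadjusted p below 0.05), and voom called 0 (5 at an unadjusted p below 0.05). Over all tested genes these shares were 7.31% and 27.6% in limma, and 6.52% and 26.9% by voom. *Il1rn*, the IL-1 receptor antagonist, and *Sbno2*, a corepressor induced by IL-10, had log2 fold changes of 0.89 and 0.62 (adjusted p = 0.0788 and 0.11 from limma).

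By level, the order in the control libraries was *Tnfaip3* (307 ± 44.1 FPKM, SD, n = 3), *Tnip1* (166 ± 27.7), *Zfp36* (124 ± 43.6), *Socs3* (115 ± 66.9), *Irak3* (102 ± 10.5), *Dusp1* (51.7 ± 5.01), *Socs1* (11.9 ± 8.33), *Il10* (8.0 ± 2.50), *Cish* (3.81 ± 2.52) and *Dusp2* (3.21 ± 0.599). Mean ± SD of neighbours in this order overlapped except between *Tnfaip3* and *Tnip1*, between *Irak3* and *Dusp1* and between *Dusp1* and *Socs1*. In the knockout libraries *Zfp36* (279 ± 94.7 FPKM) and *Socs3* (271 ± 93.0 FPKM) came before *Tnip1* (171 ± 22.1 FPKM), and *Dusp2* (9.83 ± 4.68 FPKM) came before *Cish* (4.81 ± 2.47 FPKM).

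Over the 7 lists of related regulators, 64 of 70 genes were tested and 6 passed (9.4%, against 7.31% of all tested genes), 1 higher and 5 lower, with a median log2 fold change of -0.05. The number dropped to 0 when knockout library 1 or 2 or control library 2 was left out. Of 10 inflammatory products of LPS signalling, all were tested and 1 passed, against 7.31% of all tested genes. It was *Cxcl2*, a neutrophil chemokine that was lower in the knockout libraries (4099 ± 664 against 8096 ± 744 FPKM, SD, n = 3 each, log2 fold change -0.99, limma adjusted p = 0.0197). Its adjusted p was 0.0804 when knockout library 1 was left out, 0.0779 for knockout library 2 and 0.101 for control library 2. With the replicate number as block *Nos2*, *Il12b* and *Ccl4* were higher (log2 fold changes 1.96, 0.90 and 0.80, adjusted p = 0.0165, 0.0243 and 0.0314 from limma). The block called 3.9% of all tested genes higher. When control library 3 was left out, *Il6* and *Ptgs2* were lower (log2 fold changes -1.79 and -1.41, limma adjusted p = 0.0091 and 0.0076), against -0.88 and -0.81 (adjusted p = 0.460 and 0.303) with all libraries. That setting called 14.2% of all tested genes. With any one of the other libraries left out, the limma adjusted p was 0.557 to 0.819 for *Il6* and 0.403 to 0.608 for *Ptgs2*. *Tnf*, a target of tristetraprolin, was at 5695, 4872 and 4204 FPKM against 3615, 3220 and 4491 FPKM (log2 fold change 0.39, limma adjusted p = 0.212).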

How the data were processed

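RNA of PEMs was sequenced in 6 libraries, 3 per genotype. The submitters' processing notes name the build mm9, and the aligner, the counter and the use of strand are not given in the sources used here. The authors deposited FPKM per gene and library in a table of genes, together with signal columns that hold mean normalized reads per group (divided by DESeq2 size factors). The deposited fold changes, p-values and q-values were not used. FPKM and group means together gave back whole reads (100% of values within 0.05 of a whole number in each library) and served for depth and for voom. No per-sample column was left unused (0).

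limma 3.58.1 in R 4.3.3 was run on log2(FPKM + 1), with a trended prior, over 9030 genes with a mean of at least 1 FPKM in one group, with Benjamini-Hochberg adjustment over all of them and a threshold of 0.05. The fold changes understate those of low genes. The labels do not say whether the libraries of a group came from separate mice, and the legends of the study speak of biological replicates without saying what one was for the sequencing, so p-values measure the spread between libraries, which may be technical. Deviations from the group means correlated at 0.109, 0.109 and 0.304 between libraries of equal number, all above 0.1, the limit set for taking the numbers as pairs. Knockout library 2 correlated better with control library 1 (0.291) than with its own number, and the other unequal numbers gave -0.332 to -0.045. The pairing comes from this check alone. The fit was tested on simulated data with 4-fold changes and no effect of the replicate number. This test does not cover smaller changes or the pairing. *Ighm*, *Trac*, *Ly6g*, *Epx* and *Prg2* of the marker lists were not analysed here. Genes named are the 10 members, *Timd4*, *Lyz2*, and from each list the genes past the threshold or else the 2 with the largest differences, with others named after their values were seen. The members and lists were chosen with earlier results of these data known. Start-site windows are from RefSeq (GRCm38.p6). Alternatives were no filter, a pseudocount of 0.1, the replicate block, median-of-ratios scaling, voom and each library left out.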

Additional observations from a re-analysis of the deposited data

How the results depend on the processing

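The call on the 10 regulators depended on the pairing and on single libraries. The number called was 0 without a block and 4 with the replicate block, and 0 to 3 with 1 library left out. For the single members, 98 of 110 alternative values kept their direction and their side of the threshold. Those that passed it were *Socs3*, *Dusp2*, *Zfp36* and *Irak3* with the block, *Dusp2*, *Zfp36* and *Irak3* without knockout library 3, and *Zfp36* without control library 1. The sign turned in *Tnip1* without knockout library 1 (-0.041), control library 2 (-0.033) or control library 3 (-0.0089), over a range up to 0.18, and in *Cish* without control library 3 (-0.15), over a range up to 0.71. With 1 library left out, the median log2 fold change of the members ran from 0.19 to 0.86 and the number whose groups did not overlap from 2 to 7, while the share of all tested genes that did not overlap ran from 36.3% to 51.9%. The related regulators called numbered 6, with 2 when no filter on low values was used and 0 to 9 with 1 library left out. The block added no other change of call among the members. Over all genes, 660 were called (232 higher, 428 lower), against 343 higher and 326 lower after the rescaling, 298 and 291 with voom, and 8 to 1278 in all with 1 library left out. The cause of these changes was not tested. The planned quasi-likelihood count test and TMM scaling on recovered reads were not run, and voom used median-of-ratios size factors, chosen after seeing the data. Each member had at least 155 reads in every library.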
